A study of Homo sapiens with 9 samples.

Results

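The keratins described here were the 9 luminal and basal keratin genes KRT8, KRT18, KRT19, KRT7, KRT5, KRT14, KRT15, KRT17 and KRT80, chosen by symbol from the 60675 genes in the count files. All 9 were found, and 4 of them (KRT8, KRT18, KRT19 and KRT80) had enough reads to be tested among 19278 genes. RNA was sequenced from LNCaP:C4-2, an established castrate-resistant prostate cancer cell line that is still sensitive to the antiandrogen enzalutamide, in 3 groups of 3 libraries. The shScramble group carried a hairpin that targets no gene. The shMETTL3 guide 2 and shMETTL3 guide 1 groups carried hairpins against METTL3, the enzyme that writes N6-methyladenosine on RNA. Every group carried a lentiviral, doxycycline-inducible pLKO.1-puro construct, was selected with puromycin and received 1 μg/ml doxycycline for 6 days in phenol red-free medium with charcoal-stripped serum. The study calls the selected cells clones and the sources used here do not say how many each group held, so a difference between groups could include differences between clones, which cannot be told apart from the hairpin. The titles also name a vehicle. The labels do not say whether the 3 libraries of a group came from separate cultures, so p-values measure the spread between these libraries only. The comparison asks how keratin RNA differed between cells with a METTL3 hairpin and cells with the control hairpin.

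Keratins are the intermediate filament proteins of epithelial cells. A filament needs a type II and a type I keratin, which pair one to one, and the pair in use marks the kind of epithelium. In the prostate, the luminal secretory cells make the type II keratin KRT8 with the type I keratin KRT18, whereas the basal cells make KRT5 with KRT14. KRT19 (type I) occurs in both layers, KRT15 and KRT17 (type I) are basal keratins, KRT7 (type II) belongs to simple and ductal epithelia, and KRT80 (type II) is found in many differentiated epithelia.

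METTL3 RNA was 31.5 ± 1.59 CPM (SD, n = 3) with shScramble, 16.3 ± 0.423 with guide 2 and 29.7 ± 0.378 in the libraries labelled guide 1. Guide 2 lowered it (log2 fold change of -0.95). In the libraries labelled guide 1 it was not lowered (log2 fold change of -0.08, adjusted p = 0.251), so these libraries are named by their label throughout. Library totals lay between 21899501 and 30897639 reads assigned to genes. CPM is the read count of a gene relative to the library total after TMM scaling, which sets libraries on a common scale.

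Markers of other cells were read in the same libraries. TP63, the defining regulator of basal cells, had 0 reads in all 9 libraries, and the 6 basal markers summed to 28.8 to 31.4 CPM with shScramble, 54.3 to 57.9 with guide 2 and 18.3 to 19.8 with the guide 1 label. CDH3 supplied most of that sum. Of the 5 basal markers tested, 2 were called higher with guide 2, and the other 3 had a log2 fold change below 0. All 5 were called with the guide 1 label, 3 lower and 2 higher. Over all genes tested, 20.4% were called lower and 8.85% higher with guide 2, and 16.5% and 21.2% with the guide 1 label. All 6 luminal markers were detected in every group, at a summed 321 to 343 CPM with shScramble, 494 to 543 with guide 2 and 208 to 233 with the guide 1 label. HOXB13 supplied most of that sum (239, 411 and 143 CPM on average). Of the 6, 2 were called higher and 1 lower (KLK3) with guide 2, against 29.3% of all genes called. With the guide 1 label 2 of the 6 were called, both lower, against 37.7% of all genes called (16.5% lower). The 4 neuroendocrine markers summed to 9.41 to 11.6, 3.27 to 4.99 and 74.1 to 78.2 CPM in the same order, with NCAM1, a neural adhesion molecule, highest. The 5 fibroblast markers summed to 41.9 to 45.6, 33.4 to 36.7 and 19.0 to 24.9 CPM, nearly all of it COL1A1, and DCN was at 0 in all libraries. The 3 endothelial markers summed to 1.27 to 1.78, 2.87 to 3.49 and 0.632 to 1.20 CPM, with PECAM1 at 0. The 4 leukocyte markers summed to 0.534 to 0.906, 0.199 to 0.260 and 1.54 to 2.04 CPM, with CD3E at 0. The part of these 6 sums in the keratin results was not tested. In bulk RNA, fewer cells that make a keratin and less keratin RNA per cell cannot be told apart.

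The hairpin targets are shown because the groups are defined by them and because a hairpin can also act on RNAs that match its seed. The sequences are those of the sample labels, 5′ to 3′ on the METTL3 sense strand, and capitals mark the 7 bases that pair with the seed of the guide strand.
shMETTL3 guide 1: cgtcagtatcttgGGCAAGTt
shMETTL3 guide 2: gctgcacttcagaCGAATTAt
Neither full target was found in the principal (MANE Select) transcript of any of the 9 keratin genes. The guide 1 seed match was in 1 of the 9, KRT80, once, and 17.3% of 19061 MANE Select transcripts hold these letters. The guide 2 seed match was in 0 of the 9, against 3.34% of all. A match is a description of letters and not evidence of binding.

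The type II keratin genes and KRT18 lie together on chromosome 12 of GRCh38, and the other type I keratin genes on chromosome 17. KRT8 spans positions 52897187 to 52949954 on the minus strand and KRT18 spans 52948871 to 52952901 on the plus strand of chromosome 12, so that the ends of both genes overlap. The genes share 525 exon bases on opposite strands, which are 7.63% of the exon bases of KRT8 and 16.3% of those of KRT18. The strand setting of the counting is not given in the sources used here, so reads in those bases could count for either gene. KRT80 (positions 52168996 to 52192000 on chromosome 12) and KRT19 (41523617 to 41528308 on chromosome 17) share exon bases with no other gene. KRT8 has 51 named pseudogenes and KRT18 has 67, and their summed counts were 4.25% to 7.12% and 0.903% to 2.6% of those of parent and pseudogenes together.

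Levels of different genes are compared per length, as RPKM (CPM per kilobase) over the summed exon length of each gene in the authors' annotation. With shScramble, KRT18 stood at 60.3 ± 4.78 RPKM and KRT8 at 53.7 ± 1.65 (SD, n = 3). KRT19 and KRT80 followed far below, at 2.14 ± 0.450 and 2.12 ± 0.122 RPKM, and by this length these neighbours did not differ beyond their spread. KRT7 stood at 0.0612 ± 0.0190 RPKM, and KRT17, KRT14 and KRT15 at 0.0266, 0.00946 and 0.0062 RPKM, while KRT5 had 0 reads. The order at the top depended on the length used, since the summed exons of KRT8 are 6881 bases and its MANE Select transcript is 1784, against 3218 and 1413 for KRT18. With the MANE Select length KRT8 stood at 207 ± 6.34 RPKM and KRT18 at 137 ± 10.9. By that length KRT19 stood at 3.60 ± 0.756 RPKM, above KRT80 at 2.38 ± 0.137, and their SD ranges did not meet. In every library KRT8 and KRT18 together held between 97.0% and 98.2% of the reads on the 9 genes. The cells thus carried the luminal pair in all 3 groups, and the basal pair was at or near 0.

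KRT8, the luminal type II keratin, had 364, 383 and 363 CPM in the 3 shScramble libraries. It had 340, 322 and 343 CPM with guide 2 and 199, 187 and 201 CPM in the libraries labelled guide 1. Neither hairpin group overlapped with shScramble, and the guide 1 libraries lay far below the other 6. With guide 2 the log2 fold change was -0.14 (SE 0.046, 95% interval -0.24 to -0.05, adjusted p = 0.00883), which passed the p threshold and stayed under the 1.5-fold limit. The adjusted p was 0.0552 without shScramble replicate 2 and 0.0713 without guide 2 replicate 2. With the guide 1 label KRT8 fell by 0.92 on the log2 scale (SE 0.047, adjusted p = 4.12e-16).

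KRT18, its type I partner, had 206, 200 and 177 CPM with shScramble. It had 170, 171 and 195 CPM with guide 2 and 105, 113 and 120 CPM with the guide 1 label. The guide 2 and shScramble values overlapped, whereas the guide 1 libraries were below all others. The log2 fold change with guide 2 was -0.12 (SE 0.063, 95% interval -0.25 to 0.01, adjusted p = 0.107). This adjusted p depended on the setting. It was 0.0125 without shScramble replicate 3 and 0.0155 without guide 2 replicate 3, and above 0.05 when any other library was left out. It was 0.0244 with a minimum mean of 1 CPM, 0.0497 with only the 6 libraries compared and 0.000507 with library size alone. The change stayed under the 1.5-fold limit in all of these. With the guide 1 label KRT18 fell by 0.78 on the log2 scale (SE 0.064, adjusted p = 1.39e-09).

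KRT80 was the keratin with a call in both hairpin groups. It had 8.64, 9.33 and 9.68 CPM with shScramble, 4.16, 6.38 and 5.35 with guide 2, and 3.05, 3.67 and 3.08 with the guide 1 label. The 3 groups did not overlap. KRT80 fell by 0.79 on the log2 scale with guide 2 (SE 0.13, adjusted p = 1.25e-05) and by 1.49 with the guide 1 label (SE 0.14, adjusted p = 2.47e-10). Its spread was widest with guide 2 (5.30 ± 1.11 CPM, against 9.22 ± 0.531 with shScramble and 3.27 ± 0.350 with the guide 1 label; SD, n = 3). The guide 2 call does not hold when the test asks for a change beyond 1.5-fold (adjusted p = 0.103).

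KRT19, the small type I keratin, did not pass the test in any comparison. It had 5.47, 3.80 and 5.74 CPM with shScramble, 5.16, 5.62 and 4.94 with guide 2, and 4.35, 5.47 and 4.45 with the guide 1 label, so all groups overlapped. The log2 fold change was 0.08 with guide 2 (95% interval -0.23 to 0.40, adjusted p = 0.658) and -0.06 with the guide 1 label (95% interval -0.37 to 0.25, adjusted p = 0.731). Its sign with guide 2 turned to -0.07 when libraries were scaled by library size alone.

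**Figure D1:**
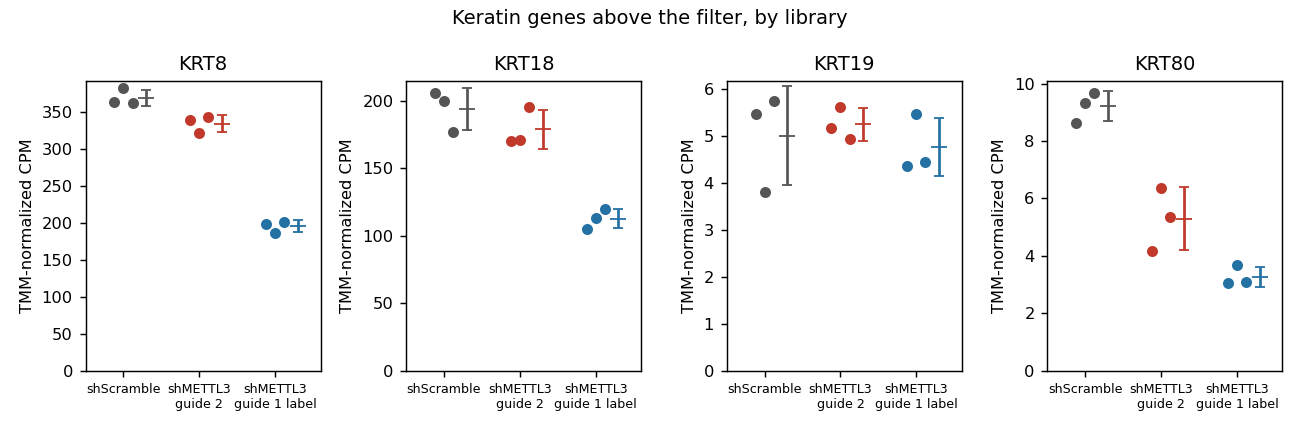
Normalized level (CPM, linear axis from 0) of the 4 keratin genes above the filter on low counts, with 1 point per library and the mean ± SD (n = 3) beside each group. KRT8 and KRT18 stand lowest in the libraries labelled guide 1 (196 and 113 CPM on average), KRT80 separates the 3 groups, and the KRT19 groups overlap.

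The 5 remaining genes had too few reads to pass the filter. KRT7 had 5, 9 and 7 reads with shScramble, 4, 1 and 2 with guide 2, and 2, 4 and 1 with the guide 1 label. KRT7 counts are too low to rank the groups, as its lowest with shScramble (5) is next to its highest in either hairpin group (4). In a fit without the filter its log2 fold change was -1.25 with guide 2 (adjusted p = 0.288) and -1.55 with the guide 1 label (adjusted p = 0.141). The basal type II keratin KRT5 had 0 reads in all 9 libraries. A count of 0 allows up to 3 reads, so its presence below that floor was not detectable at this depth, and this limit covers counting error only. Its partner KRT14 had 2, 0 and 0 reads with shScramble, 1, 0 and 1 with guide 2, and 2, 0 and 0 with the guide 1 label. KRT15 had 0, 0 and 3 reads, then 0, 5 and 0, then 1, 0 and 0. KRT17 had 2, 3 and 1 reads with shScramble, 0 in each guide 2 library, and 2 in each library labelled guide 1, all at or under 3 reads. No fold is given for KRT14, KRT15 and KRT17, and none of the 4 genes with reads was called without the filter (for KRT17 with guide 2, adjusted p = 0.114).

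With guide 2 against shScramble, 1 of the 4 tested keratins was called, and it was lower. Among all genes tested 29.3% were called (20.4% lower and 8.85% higher), and the median log2 fold change was -0.13 over the 4 keratins and -0.04 over all genes. With the guide 1 label against shScramble, 3 of the 4 were called, all lower, against 37.7% of all genes (16.5% lower and 21.2% higher). The median there was -0.85 over the 4 keratins and -0.02 over all genes. A gene was called at an adjusted p under 0.05 with at least a 1.5-fold change. Both comparisons use the same shScramble libraries. As 4 genes passed the filter, these shares describe single genes and not keratins as a class.

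The hairpin groups were then set against each other, which is the direct test of whether they differ. KRT8 was higher with guide 2 than with the guide 1 label by 0.78 on the log2 scale (SE 0.047, adjusted p = 1.11e-14). KRT18 was higher by 0.67 (SE 0.064, adjusted p = 1.34e-08) and KRT80 by 0.70 (SE 0.15, adjusted p = 0.000176). KRT19 differed by 0.14 (95% interval -0.17 to 0.46, adjusted p = 0.403). Thus 3 of the 4 were called higher, against 47.3% of all genes called (28.2% lower and 19.1% higher). The KRT80 difference went under the 1.5-fold limit without guide 2 replicate 2 (log2 fold change of 0.55).

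**Figure D2:**
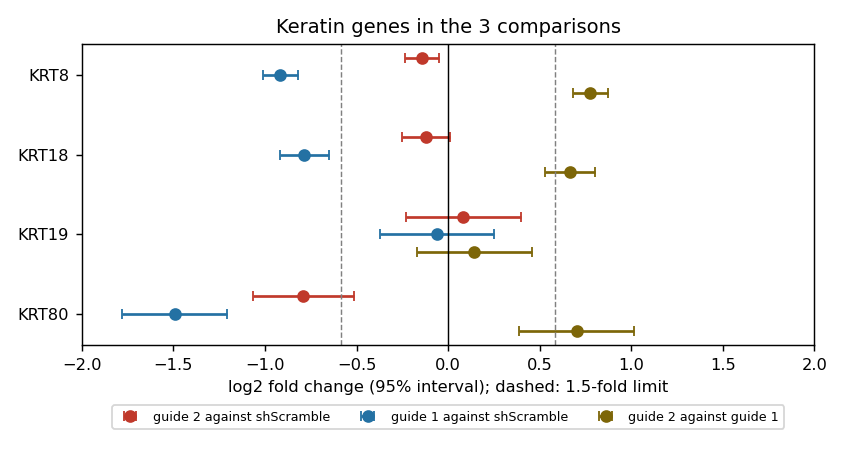
Log2 fold change of each tested keratin with its 95% interval in the 3 comparisons, where the dashed lines mark the 1.5-fold limit. KRT8 and KRT18 with guide 2 lie near 0 (-0.14 and -0.12), whereas with the guide 1 label they lie past the limit (-0.92 and -0.78). The KRT80 estimate is past it in both, though its interval with guide 2 (-1.07 to -0.51) crosses the limit.

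The balance of the luminal pair was examined within each library, where no scaling between libraries is needed. The KRT8 to KRT18 ratio of RPKM was 0.827, 0.896 and 0.961 with shScramble. It was 0.935, 0.879 and 0.822 with guide 2 and 0.885, 0.772 and 0.786 with the guide 1 label. The groups overlapped in each comparison. In the exact two-sided permutation test over libraries the ratio gave p = 0.7 for guide 2, p = 0.2 for the guide 1 label and p = 0.3 between the hairpins (0.7, 0.45 and 0.45 after adjustment over the 3). With 3 libraries against 3 the smallest p this test can give is 0.1, so it could not have passed 0.05. The level of the ratio rests on the length used and was 1.51 ± 0.113 with shScramble by MANE Select length, against 0.895 ± 0.0667 by exon length.

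RNA of the 9 keratin genes summed to 118 ± 5.20 RPKM with shScramble, 108 ± 5.43 with guide 2 and 66.3 ± 2.55 with the guide 1 label. This is not all keratin RNA, since KRT10, outside the 9, stood at 43.5 ± 4.81, 42.3 ± 11.7 and 29.9 ± 8.08 RPKM in the same order. The sum was 0.910 times the shScramble level with guide 2 and 0.560 times with the guide 1 label. The 9 genes took 0.0579% to 0.0614% of all reads with shScramble, 0.0474% to 0.0509% with guide 2 and 0.0320% to 0.0334% with the guide 1 label. These shares are before TMM scaling and did not overlap between groups.

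**Figure D3:**
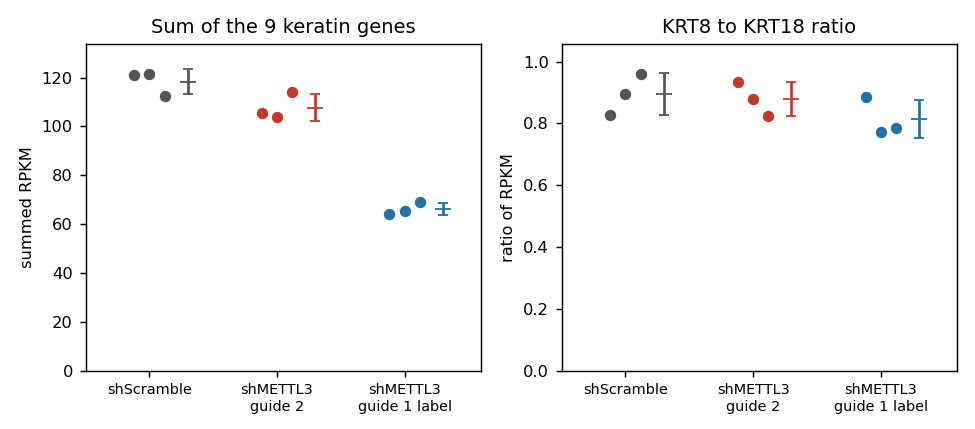
Summed RPKM of the 9 keratin genes (left) and the KRT8 to KRT18 ratio of RPKM (right) in each library, on linear axes from 0, with the mean ± SD (n = 3) beside each group. The sum is lowest with the guide 1 label (66.3 RPKM) while the ratios of all groups overlap.

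Of 46 further keratin genes, 16 had 0 reads in all 9 libraries and 2 passed the filter. KRT10, the type I keratin of the upper epidermis, had 81.5, 102 and 94.2 CPM with shScramble, 118, 79.9 and 71.4 with guide 2, and 82.9, 50.4 and 57.0 with the guide 1 label. Its groups overlapped and it was not called (log2 fold change of -0.04 with guide 2 and -0.54 with the guide 1 label, adjusted p = 0.899 and 0.108). Without guide 1 replicate 1 it was called lower with that label, at -0.78 (adjusted p = 0.0379). KRT6C, a type II keratin of stressed and stratified epithelia, was outside the rule for named genes and was chosen after its values were seen. It had 1, 4 and 2 reads with shScramble, 20, 19 and 23 with guide 2, and 1, 2 and 0 with the guide 1 label. Its counts with guide 2 (a mean of 0.889 CPM) lay above those of both other groups, and as it passed the filter only through that group no test is given. Against the guide 1 label, whose libraries were all at or under 3 reads, it was at least 8.5-fold higher. KRT6A and KRT6B are near-identical copies among which reads may be split. KRT6A had 0 reads throughout and KRT6B at most 4 in a library. KRT75, KRT78 and KRT222, also chosen after their values were seen, did not pass the filter and were highest with the guide 1 label. Their summed reads were 33, 17 and 21 with that label, 5, 0 and 5 with shScramble, and 3, 0 and 0 with guide 2. KRT24, also below the filter, went the other way, with 9, 20 and 18 summed reads in the same order of groups.

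Other families of intermediate filaments were read beside the keratins. Of 15 such genes, 12 were tested. With guide 2, 9 of the 12 were called, 6 lower and 3 higher, against 29.3% of all genes, and the median log2 fold change was -0.97, against -0.04 over all genes. With the guide 1 label, 9 were called, 1 lower and 8 higher, against 37.7% of all genes, with a median of 1.23, against -0.02. GFAP, among those 8, rests on few reads (7, 3 and 3 with shScramble and 7, 11 and 18 with that label, adjusted p = 0.0458). VIM, the vimentin of mesenchymal cells, had 22.3, 23.6 and 23.5 CPM with shScramble. It had 3.60, 3.51 and 3.58 CPM with guide 2 and 169, 132 and 156 CPM with the guide 1 label. VIM thus fell by 2.70 on the log2 scale with guide 2 (adjusted p = 2.97e-15) and rose by 2.72 with the guide 1 label (adjusted p = 2.2e-19), with no overlap.

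INA, NEFL and NEFM, which encode filaments of neurons, moved in the same directions as VIM. INA, which encodes alpha-internexin, went from 4.46 ± 0.416 CPM with shScramble to 0.161 ± 0.105 with guide 2 and 42.1 ± 4.70 with the guide 1 label. NEFL, the light neurofilament chain, went from 1.65 ± 0.288 to 0.188 ± 0.0773 and 45.6 ± 2.76 CPM. NEFM, the medium chain, stood at 1.23 ± 0.308 CPM with shScramble and at 43.7 ± 1.02 with the guide 1 label, and was at or under 3 reads in each guide 2 library, at least 9.56-fold lower. All 3 were called in both hairpin groups, lower with guide 2 and higher with the guide 1 label. PRPH, the peripherin of peripheral neurons, went another way and was called lower in both (log2 fold changes of -1.52 with guide 2 and -0.60 with the guide 1 label). LMNB1 and LMNB2, the B-type lamins of the nuclear envelope, were called higher in both, by 1.00 and 0.82 with guide 2 and by 0.65 and 1.03 with the guide 1 label on the log2 scale.

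Keratin filaments end at desmosomes and hemidesmosomes through linker proteins. The list of 12 genes held such linkers and other keratin-associated proteins, and 11 were tested. With guide 2, 1 of the 11 was called, and it was lower, against 29.3% of all genes, while the median log2 fold change was 0.20. DSP, the desmoplakin that ties keratin to desmosomes, had 209, 199 and 212 CPM with shScramble, 87.1, 87.0 and 81.2 with guide 2, and 193, 226 and 206 with the guide 1 label. DSP fell by 1.28 on the log2 scale with guide 2 (adjusted p = 3.09e-17), and its change with the guide 1 label was 0.01 (adjusted p = 0.813). With the guide 1 label, 6 of the 11 were called, 5 lower and 1 higher, with a median of -0.31, against 16.5% of all genes called lower and 21.2% higher. EVPL (envoplakin) and PKP3 (plakophilin 3) fell by 1.00 and 0.90 with that label, whereas DST (dystonin) rose by 1.35. With guide 2 these 3 genes changed by 0.02, 0.53 and -0.31 and were not called.

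Of 17 epithelial transcription factors, 14 were tested. With guide 2, 4 of the 14 were called, all lower, a share near the 29.3% called over all genes (20.4% lower), and the median log2 fold change was -0.16. With the guide 1 label, 12 were called, 9 lower and 3 higher, against 37.7% of all genes, with a median of -0.81. ELF3, an ETS factor of epithelia, had 89.4, 98.4 and 94.1 CPM with shScramble, 47.6, 48.6 and 51.1 with guide 2, and 40.6, 47.8 and 46.8 with the guide 1 label. ELF3 fell by 0.94 and 1.06 on the log2 scale (adjusted p = 1.37e-13 and 2.18e-15). KLF4, a factor of differentiating epithelia, fell by 1.96 with guide 2, and its log2 fold change of -0.36 with the guide 1 label was under the 1.5-fold limit. GRHL2, which acts in epithelial differentiation, fell by 0.96 on the log2 scale with the guide 1 label, and with guide 2 it changed by 0.20 and was not called.

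**Figure D4:**
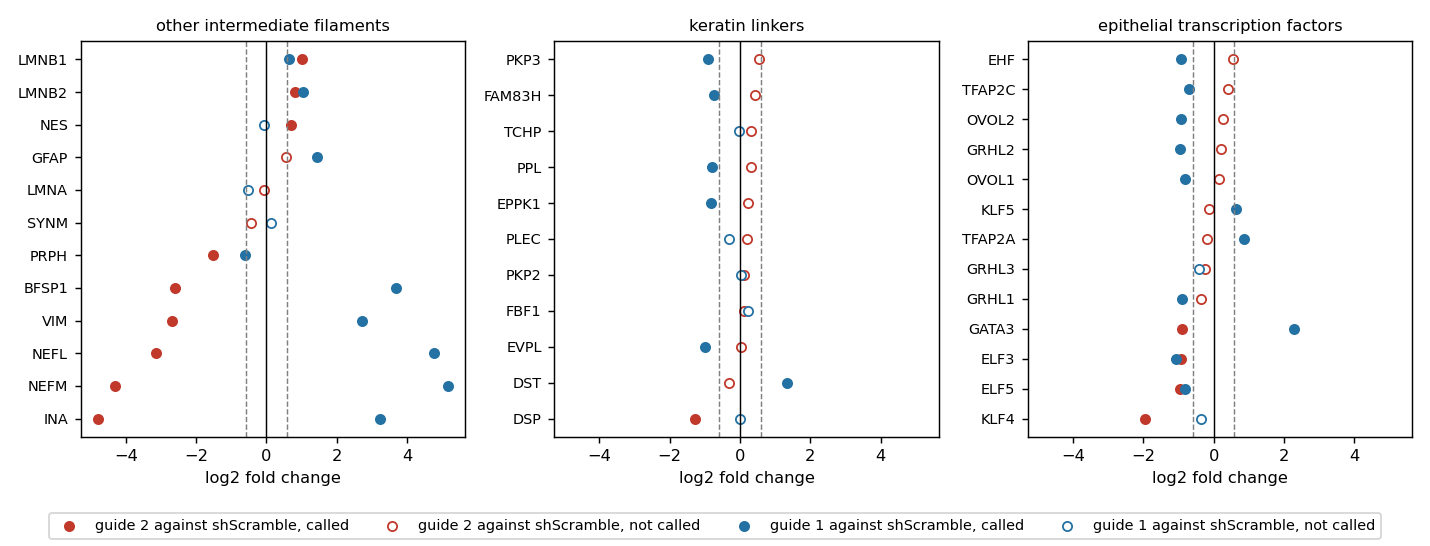
Log2 fold change against shScramble of tested genes in 3 lists (other intermediate filaments, keratin linkers, epithelial transcription factors), with guide 2 in red and the guide 1 label in blue, filled where called, and dashed lines at the 1.5-fold limit. VIM, INA, NEFL and NEFM lie on opposite sides of 0 in the 2 comparisons (for VIM -2.70 and 2.72), and the points for NEFM and BFSP1 with guide 2 are fitted values of genes at or under 3 reads.

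Genes with the most similar profile to each tested keratin were sought among protein-coding genes that averaged 10 CPM or more, by Pearson's r of log2 CPM over the 9 libraries. For KRT8 these were IFI35 (r = 0.998), CRACR2B (r = 0.996) and MFN1 (r = 0.996). For KRT18 they included RETSAT (r = 0.996) and SLC43A1 (r = 0.993). For KRT80 they were C19orf25 (r = 0.982), ERBIN (r = 0.982) and EPHA6 (r = 0.978). For KRT19 the highest values were lower, with POU2F1 (r = 0.807), ICE2 (r = 0.788) and NCBP3 (r = 0.743). Between members, r was 0.972 for KRT8 with KRT18, 0.854 for KRT8 with KRT80 and 0.134 for KRT8 with KRT19. The libraries fall into 3 groups and share the scaling, so these values describe likeness over groups and are given with no test.

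Genes within 250 kb were counted for position. Around KRT8, 10 neighbours were tested, KRT18 among them, of which 1 was called lower and 4 higher with guide 2, and 3 lower and 1 higher with the guide 1 label. The numbers around KRT18, with KRT8 among its neighbours, were the same. Around KRT80, 5 were tested, of which 1 was called lower with guide 2 and 1 higher with the guide 1 label. Over all genes tested, 20.4% were called lower and 8.85% higher with guide 2. With the guide 1 label these shares were 16.5% lower and 21.2% higher.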

How the data were processed

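Gene counts of 9 LNCaP:C4-2 libraries were grouped by the sample labels. The authors trimmed reads (Trim Galore, cutadapt, FastQC), aligned them to GRCh38 (STAR) and counted them per gene (featureCounts). The deposited values are raw counts per gene for each library, without normalization or pooling. Strand and multi-mapping settings are not given in the sources used here. Of 60675 genes, 56558 (93.2%) were matched to a symbol in a newer GRCh38 annotation.

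Counts were scaled by TMM, filtered with filterByExpr (minimum count 10, minimum total 15) and tested with edgeR 4.0.16 (quasi-likelihood F test, robust, all 9 libraries, 1 coefficient per group), with Benjamini-Hochberg adjustment over 19278 genes. Genes were called at adjusted p under 0.05 and 1.5-fold. Intervals use the model's t distribution. DESeq2 1.42.0 was an alternative, with other scalings, filters, left-out libraries, added pseudogene counts and a replicate block. The procedure was tested on simulated data. The KRT8 to KRT18 ratio was tested by exact permutation.

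Members and lists were chosen with earlier results of these data known. The text names all members, genes of each list called with either hairpin that averaged 5 CPM or more (at most 4, by largest change), further keratins of at least 1 CPM, and the 3 most alike genes per tested keratin. LMNB1, LMNB2, PRPH, BFSP1, GFAP, KRT6A, KRT6B, KRT6C, KRT24, KRT75, KRT78 and KRT222 are named outside this rule, after their values were seen. Some items that the rule names, and a promoter search, are not reported here. With totals of 21899501 to 30897639 counts, 3 counts were taken as the floor.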

Additional observations from a re-analysis of the deposited data

Results flagged for a closer look

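KRT8, KRT18 and KRT80 were set apart because the direct comparison of the hairpin groups passed the test. KRT8 was 0.775 higher on the log2 scale with guide 2 than in the libraries labelled guide 1, higher in 3 of 3 libraries against all 3 of the others. KRT18 was 0.665 higher and KRT80 was 0.702 higher, again with no overlap of the groups. METTL3 RNA was lowered with guide 2 and not lowered in the libraries labelled guide 1, and the part of METTL3 in these differences was not tested.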

How the results depend on the processing

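Of 228 keratin results under alternative settings, 216 kept their direction and side of the threshold. With guide 2 against shScramble, the number of keratins called went from 1 to 0 when edgeR's glmTreat asked for a change beyond 1.5-fold, and to 2 by adjusted p alone, where KRT8 was added at -0.14. Between the hairpins the number went from 3 to 1 with glmTreat and to 1 with library size alone, where KRT18 stood at 0.53 and KRT80 at 0.57, and it was 2 to 3 when 1 library was left out. Scaling by library size alone also moved the log2 difference of the summed keratin level from -0.14 to -0.29 with guide 2 and from 0.70 to 0.56 between the hairpins. The same scaling moved the median of all genes with guide 2 from -0.04 to -0.19, and the share of its calls that were higher from 30.2% to 17.2%. KRT19 turned to -0.0685 with guide 2 under that scaling, and ranged from -0.0926 to 0.181 with guide 2 and from -0.243 to 0.0326 with the guide 1 label when 1 library was left out. The log2 KRT8 to KRT18 ratio with guide 2 ranged from -0.0798 to 0.0281 when 1 library was left out. By MANE Select length, added after the data were seen, the ratio was 1.51, 1.49 and 1.38 in place of 0.895, 0.879 and 0.814. With glmTreat the number of genes called fell from 5645 to 3261 with guide 2, and by adjusted p alone it was 11910. It was 4942 and 13188, in place of 7265, with the guide 1 label, and 14386 between the hairpins by adjusted p alone, in place of 9125. Scaling by library size alone leaves out the TMM factors. These were 0.928 to 0.940 with guide 2, 1.03 to 1.04 with shScramble and 1.02 to 1.04 with the guide 1 label. The numbers called with glmTreat and by adjusted p alone rest on other thresholds. Why the TMM factors differed between groups was not tested.

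Libraries share replicate numbers across groups, and same-numbered libraries deviated together by correlations of -0.098 to 0.053. These values were not set against differently numbered libraries, so they cannot say whether the numbers pair the samples. A replicate block changed no keratin call (KRT8 with guide 2 stayed at -0.14) and gave 5494, 7140 and 9027 calls over all genes. KRT7, KRT5, KRT14, KRT15 and KRT17 had at most 9 reads in a library, too few to compare the groups.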
